A study of Mus musculus with 4 samples.

Results

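Footprint levels of 10 genes of neutrophil granules and of calprotectin were described in dorsal root ganglia of the mouse, which house sensory neurons along the spine. They are S100a8, S100a9, Elane, Mpo, Prtn3, Ltf, Camp, Ngp, Lcn2 and Cd177, 10 of the 48431 rows of the deposited table, found by gene symbol. The genes were chosen by their footprint values in these 4 libraries, so their levels, and the way they differ between libraries, are given as a description with no test. The 4 libraries formed 1 group, from male wild-type mice of strain SW. Per the treatment label the mice received methylglyoxal, a reactive dicarbonyl formed from sugars, intraperitoneally at 2 mg/kg for 6 days. Another text field of these samples speaks of saline, so the label alone is followed for naming them. The labels used here give no age, and do not say whether animals were pooled. No control libraries were analysed here, and nothing below compares methylglyoxal with its absence.

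Neutrophils are short-lived phagocytes that are made in the bone marrow and carry their weapons as proteins packed in granules before they leave it. Primary (azurophil) granules, filled at the promyelocyte stage, hold myeloperoxidase and serine proteases. Secondary (specific) granules, filled later at the myelocyte stage, hold lactoferrin, cathelicidin and lipocalin. The cytosol of the mature cell is rich in calprotectin, a calcium- and zinc-binding complex of S100A8 and S100A9 that, once released, acts as an alarm signal. Transcripts of the granule proteases are known to be highest in marrow precursors and low in circulating neutrophils, whereas those of S100a8 and S100a9 stay high in mature cells. A ganglion is supplied by blood vessels and lies inside the bone of the spine, and few neutrophils are known to reside in it without injury.

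Values are CPM, reads per 1000000 reads of a library, not divided by gene length. One read was worth 0.287, 0.380, 0.383 and 0.266 CPM in replicates 1 to 4, from which library sizes of 2610536 to 3753011 reads were recovered. The 40 values of the 10 genes all came out as whole reads within 0.00229 reads, between 16 and 1613 reads each. Replicates 1 and 2, called the first pair, were almost as close as sampling alone would make them, with a chi-square of 1.03 per degree of freedom over 12119 genes. Replicates 3 and 4, called the second pair, gave 1.05 over 12118 genes. Chi-square tests gave p = 0.0115 and p = 0.000239 for the pairs, while libraries of different pairs had values of 3.18 to 3.89 per degree of freedom. Each pair was therefore counted as 1 sample, means ± SD are over the 2 pair means, and intervals are exact 95% intervals on the reads that cover counting error only. The labels do not say what the pairs are. Markers of the labelled tissue were present in every library: all 10 ganglion genes were detected, which here means an average of 1 CPM or more, among them the sensory neuron genes Prph, Avil and Isl1.

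The upstream sequences of 5 of the genes are shown because all 10 genes differed between the pairs in the same direction. They are the 250 bases before the RefSeq start of S100a8 (chr3:90668821-90669070, plus strand), S100a9 (chr3:90695722-90695971, minus strand), Elane (chr10:79886062-79886311, plus strand), Prtn3 (chr10:79879417-79879666, plus strand) and Ngp (chr9:110419558-110419807, plus strand), build GRCm38.p6. Each runs 5′ to 3′ on the gene's strand, and for S100a8, Elane, Prtn3 and Ngp the RefSeq start lies inside the span that GENCODE gives the gene. Capitals mark letters that match a motif of a factor of the granulocyte lineage on either strand, chosen after the sequences had been read.
S100a8: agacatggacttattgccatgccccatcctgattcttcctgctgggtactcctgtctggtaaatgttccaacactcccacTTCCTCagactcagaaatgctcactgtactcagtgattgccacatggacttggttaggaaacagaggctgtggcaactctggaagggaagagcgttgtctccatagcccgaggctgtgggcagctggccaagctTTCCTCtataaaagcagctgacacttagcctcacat
S100a9: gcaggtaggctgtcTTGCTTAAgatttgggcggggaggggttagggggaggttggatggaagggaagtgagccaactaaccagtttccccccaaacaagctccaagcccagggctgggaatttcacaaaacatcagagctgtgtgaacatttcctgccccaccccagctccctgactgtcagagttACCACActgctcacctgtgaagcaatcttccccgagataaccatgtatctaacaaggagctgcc
Elane: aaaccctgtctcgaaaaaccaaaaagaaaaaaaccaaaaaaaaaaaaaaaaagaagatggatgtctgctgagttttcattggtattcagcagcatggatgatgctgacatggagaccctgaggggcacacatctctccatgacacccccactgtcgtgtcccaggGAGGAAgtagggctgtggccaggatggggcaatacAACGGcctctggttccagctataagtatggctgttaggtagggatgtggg
Prtn3: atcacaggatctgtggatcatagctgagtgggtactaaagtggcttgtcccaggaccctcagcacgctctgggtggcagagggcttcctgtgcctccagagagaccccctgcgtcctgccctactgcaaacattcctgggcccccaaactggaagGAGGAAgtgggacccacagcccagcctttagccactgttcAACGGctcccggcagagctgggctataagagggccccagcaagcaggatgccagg
Ngp: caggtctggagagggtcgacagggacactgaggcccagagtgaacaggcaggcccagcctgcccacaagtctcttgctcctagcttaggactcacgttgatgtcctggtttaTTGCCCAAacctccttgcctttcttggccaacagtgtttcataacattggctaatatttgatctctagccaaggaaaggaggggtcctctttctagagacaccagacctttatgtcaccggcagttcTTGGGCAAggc
The ETS-type motif of PU.1 (GAGGAA or its complement TTCCTC), a factor of myeloid cells, occurred in 7 of the 10 upstream windows, against 23.3% of 32851 windows in all, and those of S100a9, Camp and Ngp held none. The C/EBP motif (TTGCNNAA, complement TTNNGCAA) occurred in the windows of S100a9, Ltf, Ngp and Lcn2, 4 of 10, against 9.56% of all windows, and in that of Ngp both as TTGCCCAA and as TTGGGCAA. The MYB motif (AACGG, complement CCGTT) occurred in those of Elane and Prtn3 alone, 2 of 10, against 14.5%, and lay within 55 bases of the start in both. The RUNX motif (TGTGGT, complement ACCACA) occurred once, in the window of S100a9, against 14.05%. No 2 of these matches overlapped in the windows shown. A match is a description of letters and not evidence of binding.

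The calprotectin subunits had the highest levels of the 10 genes per kb of coding length; in CPM, Ltf (mean of 188) lay above S100a8. S100a9 (chromosome 3, 90692632 to 90695721, GRCm38) stood at 462, 462, 155 and 139 CPM in replicates 1 to 4. S100a8 (chromosome 3, 90668978 to 90670035) stood at 282, 284, 76.6 and 77.8 CPM. Both genes were high in the first pair and low in the second, with no overlap and with almost equal values inside a pair. The pair means gave 305 ± 223 CPM for S100a9 and 180 ± 146 for S100a8 (SD, n = 2), and these large SDs are the gap between the pairs. Because the coding sequences are short, 339 and 267 bases, the levels per kb of coding length were 899 and 675 CPM, at ranks 60 and 93 among 13820 detected protein-coding genes.

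S100a9 exceeded S100a8 in every library. The ratio of their CPM was 1.64, 1.63, 2.02 and 1.78 in replicates 1 to 4, a difference of 0.81 ± 0.15 in log2(CPM + 1) (SD over the 2 pairs). Per kb of coding length the excess was smaller, 1.29-fold in the first pair (interval 1.21 to 1.37) and 1.48-fold in the second (1.33 to 1.66). The complex contains the subunits in equal numbers. The intervals of the pairs overlapped by a small margin.

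Granule genes of the primary type lay below those of calprotectin and of the secondary type per kb of coding length, though not in CPM. Mpo (chromosome 11, 87793581 to 87804413), which encodes myeloperoxidase, the enzyme that makes hypochlorous acid, stood at 204, 199, 83.5 and 80.2 CPM. Elane (chromosome 10, 79886247 to 79888215), the neutrophil elastase gene, stood at 64.8, 70.2, 16.9 and 21.6 CPM. Prtn3 (chromosome 10, 79874476 to 79883174), which encodes proteinase 3 and lies beside Elane, stood at 27.8, 24.7, 7.66 and 8.53 CPM. In each of these genes the lowest library of the first pair was above the highest of the second, by 2.38 times in Mpo, 3.00 in Elane and 2.89 in Prtn3. Elane exceeded its neighbour Prtn3 by 2.43 times per kb of coding length in the first pair and 2.30 in the second, with intervals of 2.02 to 2.93 and 1.65 to 3.25. Mpo and Elane were close in the first pair, where Mpo was 1.11 times Elane per kb and the interval of 0.989 to 1.24 held 1. In the second pair Mpo was 1.53 times Elane (1.26 to 1.88).

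Secondary granule genes held 4656 reads in the first pair, against 4565 for calprotectin, and 1693 against 1418 in the second. Ltf (chromosome 9, 111019271 to 111042767), which encodes the iron-binding protein lactoferrin, stood at 268, 276, 98.4 and 110 CPM. Ngp (chromosome 9, 110419747 to 110423012), which encodes the cathelin-related neutrophilic granule protein, stood at 243, 237, 78.5 and 84.7 CPM. Camp (chromosome 9, 109847379 to 109849617), which encodes the antimicrobial cathelicidin, stood at 124, 124, 43.3 and 38.1 CPM. All 3 genes lie on chromosome 9, and in all 3 both libraries of the second pair were below both of the first. Lcn2 (chromosome 2, 32384633 to 32388252), which encodes lipocalin-2, a protein that traps bacterial siderophores, stood at 123, 126, 37.5 and 38.9 CPM. Ngp was 1.99 times Camp per kb of coding length in the first pair (1.83 to 2.18) and 2.104 times in the second (1.81 to 2.45). The mean log2(CPM + 1) of the 4 secondary granule genes exceeded that of the 3 primary granule genes by 1.29, 1.33, 1.36 and 1.26 in replicates 1 to 4, and by 1.84 ± 0.0015 per kb of coding length (SD, n = 2).

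Cd177 (chromosome 7, 24743983 to 24760311), which encodes a surface and granule membrane protein of neutrophils that pairs with proteinase 3 in human cells, was among the lowest. It stood at 46.2, 38.3, 6.13 and 10.1 CPM, from 161, 101, 16 and 38 reads. The libraries of the second pair were again below those of the first, and the lower of the first was 3.79 times the higher of the second. With 2451 coding bases its level per kb was 10.3 CPM, near the middle of all detected coding genes, at the 46.9th percentile.

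**Figure D1:**
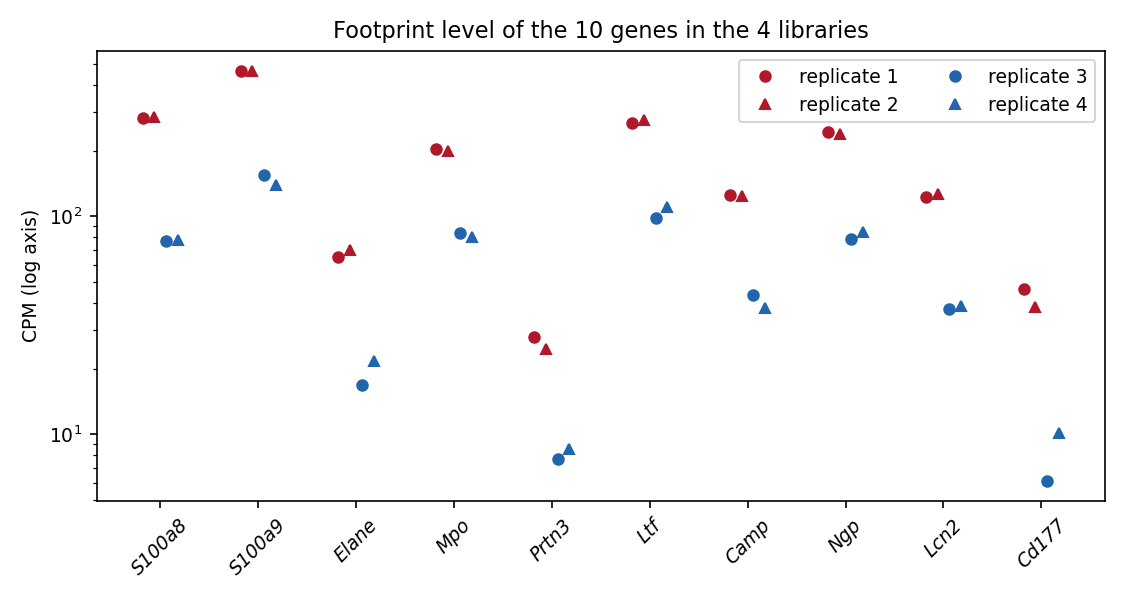
Footprint level of each of the 10 genes (horizontal axis) in CPM on a log axis, 1 point per library, with replicates 1 and 2 in red and replicates 3 and 4 in blue. In each gene both red points lie above both blue points, and the points of 1 colour lie close together, least so in Cd177.

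The order of the 10 genes per kb of coding length was the same in all 4 libraries. It ran S100a9, S100a8, Ngp, Camp, Lcn2, Ltf, Mpo, Elane, Prtn3 and Cd177. The span from first to last was 1364 to 17.2 CPM per kb in the first pair and 434 to 3.32 in the second. Neighbours in this order were apart by more than counting error in both pairs, except Mpo and Elane in the first pair. The narrowest of the others was Camp over Lcn2, 1.16 times in the first pair (1.05 to 1.29) and 1.22 in the second (1.02 to 1.46). By percentile among detected coding genes per kb, Ngp stood at 98.3, Camp at 95.5, Lcn2 at 94.5, Ltf at 91.3, Mpo at 87.8, Elane at 85.3 and Prtn3 at 68.4.

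Together the 10 genes took 0.185%, 0.184%, 0.0604% and 0.0609% of the reads of replicates 1 to 4. The sum was 1844 CPM in the first pair and 606 in the second, a ratio of 3.04 (2.93 to 3.15). All 10 genes were at least 1.5-fold higher in the first pair on the scale of log2(CPM + 1), where 5.12% of the 15271 genes detected were, and 4.3% of the 15271 were at least 1.5-fold higher in the second pair. Among the 8995 genes that averaged 10 CPM or more, which the 10 genes all reached, the shares were 2.09% and 2.08%. In all 10 genes the first pair lay above the second with no overlap. Among lists described below, so did 12 of 12 skeletal muscle genes, 9 of 10 macrophage genes, 1 of 7 detected B cell genes and 0 of 10 ganglion genes. The share of all detected genes without such overlap is not given here. The 10 genes were chosen with this difference in view, so nothing is read from these counts. The median difference was 1.62 for the 10 genes and 0.0038 for all detected genes. With footprints of a bulk tissue alone, fewer cells of a type, less RNA per cell and less translation of that RNA cannot be told apart.

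The ratio of the pairs was not equal for all 10 genes. It was lowest for Mpo, 2.47 (2.23 to 2.74), and Ltf, 2.58 (2.36 to 2.82). S100a8 stood at 3.66 (3.31 to 4.06) and Cd177 highest at 5.04 (3.75 to 6.89). The intervals of Mpo and Ltf lay below those of S100a8 and Cd177, while the other 6 genes lay between 2.93 (Ngp) and 3.42 (Elane). By class the ratio was 3.35 for calprotectin (3.15 to 3.55), 2.70 for the primary granule genes (2.47 to 2.95) and 2.86 for the secondary granule genes (2.70 to 3.02). Within the pairs, by contrast, all 20 ratios of 1 library to the other had intervals that held 1, and the widest, in Cd177 between replicates 3 and 4, was 1.65-fold.

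**Figure D2:**
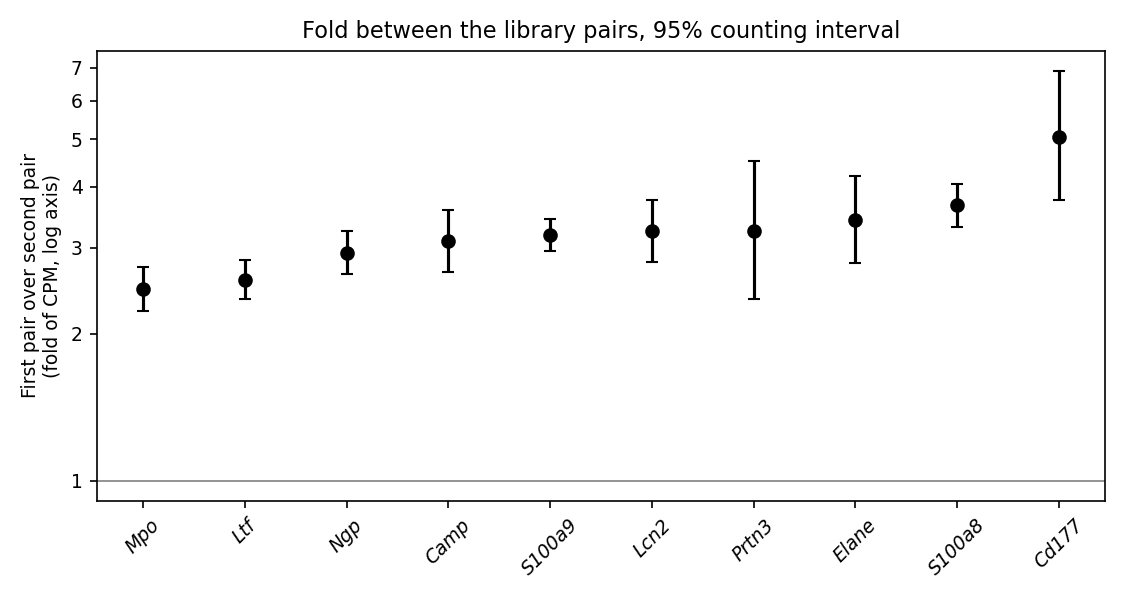
Ratio of the first pair to the second pair for each gene, from the pooled reads of 2 libraries each, on a log axis, with exact 95% intervals for counting error as bars. The points run from 2.47 in Mpo to 5.04 in Cd177, and no bar reaches 1.

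These unequal ratios shifted the makeup of the reads of the 10 genes a little. Calprotectin held 40.4% of the reads of the 10 genes in the first pair (39.5 to 41.3) and 36.7% in the second (35.2 to 38.3). Primary granule genes held 1806 of 11289 reads in the first pair (15.3% to 16.7%) and 18.0% in the second (16.8 to 19.3), and secondary granule genes 41.2% (40.3 to 42.2) and 43.8% (42.3 to 45.4). The intervals of the pairs were apart for each of these classes, but single genes of the granule classes did not all lie the same way. Elane held 3.64% in the first pair and 3.24% in the second, Prtn3 1.44% and 1.35%, Camp 6.74% and 6.63%, and Lcn2 6.73% and 6.32%, against the direction of their classes and each with intervals that overlapped. S100a8 held 15.4% (14.7 to 16.04) in the first pair and 12.7% (11.7 to 13.8) in the second, whereas S100a9 held 25.1% (24.3 to 25.9) and 24.0% (22.6 to 25.4), with intervals that overlapped. Mpo held 10.9% (10.4 to 11.5) in the first pair and 13.4% (12.4 to 14.6) in the second, and Ltf 14.7% (14.1 to 15.4) and 17.4% (16.2 to 18.6).

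Reads could be assigned to 9 of the 10 genes with little ambiguity of sequence. In 8 genes no coding window of 28 bases, the shortest footprint selected, occurred in an annotated transcript of another gene, and in Cd177 0.660% did. For S100a8 against S100a9, Elane against Prtn3 and Ngp against Camp this leaves no shared window. In Mpo, 19.3% of the windows also lay in Gm11505, an antisense transcript that overlaps it on the other strand. Gm11505 stood at 37.0, 33.4, 9.96 and 17.1 CPM, high and low in the same pairs as Mpo. The strand setting of the counting is not given in the sources used here, so reads of Mpo and Gm11505 cannot be told apart. Prtn3 overlaps the coding gene Plppr3 on the opposite strand, which stood at 15.7 CPM in the first pair and 17.1 in the second.

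Other granule genes, which did not enter the choice of the 10, ranged widely in level, from Lyz2 with a mean of 193 CPM to Olfm4, the lowest detected, with 5.68. Of 12, 11 were detected, and 8 were at least 1.5-fold higher in the first pair and none in the second. The median difference was 0.89 in log2(CPM + 1). Over all detected genes the shares were 5.12% and 4.3%, which stand beside each such count below. The 8 include Lyz2, at 0.591 on that scale. Those counts use means of the libraries of a pair, while the ratios given here pool their reads. Mmp8, the collagenase of neutrophil granules, stood at 31.0, 31.5, 9.58 and 11.2 CPM, a ratio of 2.96 (2.23 to 3.98). Ctsg, the cathepsin G gene of primary granules, stood at 20.1, 17.5, 7.28 and 5.06 CPM, a ratio of 3.17 (2.18 to 4.71). In both, the pairs did not overlap. Fcnb, which encodes a ficolin of marrow neutrophil precursors, had a ratio of 3.08 (2.02 to 4.83), and Pglyrp1, a peptidoglycan-binding granule protein gene, 2.37 (1.76 to 3.23). Ratios were smaller in Lyz2, the lysozyme gene, at 1.495 (1.38 to 1.62), and Mmp9, a gelatinase gene, at 1.45 (1.29 to 1.64). The oxidase subunit genes Cybb and Cyba had 1.43 (1.24 to 1.65) and 1.44 (1.18 to 1.76). Chil3, which is also in the monocyte list, had 3.26 (2.14 to 5.09). Lyz2 shares 41.7% of its windows with Lyz1 and is uncertain for that reason. Bpi was the 1 gene of the list not detected, with 0 reads in 3 of the 4 libraries.

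Genes of mature neutrophils were detected less fully. Of 23, 14 were detected, and 12 were at least 1.5-fold higher in the first pair and none in the second. The median difference was 1.07. Of all detected genes, 5.12% were that much higher in the first pair. The 12 include Padi4 (1.56, 0.828 to 3.01), Fpr2 (2.08, 0.966 to 4.75) and Mcemp1 (2.18, 0.984 to 5.19), whose intervals held 1. Retnlg, a resistin-like gene of mature neutrophils, led at 47.0, 40.2, 15.7 and 15.7 CPM, a ratio of 2.81 (2.22 to 3.57). Lrg1 followed with a ratio of 2.51 (1.91 to 3.31). The receptor genes Csf3r (for G-CSF) and Cxcr2 (for neutrophil chemokines) had means of 7.63 and 6.41 CPM and ratios of 2.50 (1.58 to 4.08) and 2.77 (1.65 to 4.82). Csf3r shares 32.7% of its windows with another annotated gene. Ly6g, whose product is the usual surface marker of mouse neutrophils, was low, at 3.15, 4.18, 0.766 and 1.60 CPM, and 21.6% of its windows occur in other genes. The stefin genes Stfa1 and Stfa3 and BC100530 were listed at 0 in all 4 libraries. In Stfa1 66.3% and in BC100530 85.2% of the windows occur in related genes, so a 0 there does not show absence. Summed over the 23 genes the level was 152, 155, 61.7 and 61.3 CPM, a ratio of the pair means of 2.49.

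Regulators and the oxidase of the same cells were also measured. Of 6 genes of the NADPH oxidase, which makes the superoxide that myeloperoxidase uses downstream, 6 were detected and 3 were at least 1.5-fold higher in the first pair: Rac2 (2.80, 2.07 to 3.84), Ncf4 (2.58, 1.66 to 4.12) and Ncf1 (1.78, 1.34 to 2.38). Of 7 granulocyte transcription factor genes, 7 were detected and 3 were higher by that measure. Cebpe, the factor that drives secondary granule genes, stood at 4.30, 5.70, 1.92 and 1.60 CPM, a ratio of 2.84 (1.38 to 6.27). Spi1, which encodes PU.1, had a ratio of 1.91 (1.39 to 2.65) and Cebpa 1.71 (1.22 to 2.43). Cebpb, which many cell types express, had 1.02 (0.701 to 1.49), and Runx1 was lower in the first pair, at 0.809 (0.670 to 0.975).

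Markers of other blood and marrow cells were in part also higher in the first pair. Of 8 platelet genes, 5 were at least 1.5-fold higher in the first pair, with a summed level of 138 and 132 CPM against 74.7 and 75.7. Of 7 monocyte genes, which include Chil3 of the granule list, 4 were, among them Ly6c2 with a ratio of 2.83 (1.76 to 4.67), and the sums were 317 and 323 against 245 and 249. Of 10 red cell precursor genes, 5 were, with sums of 145 and 157 against 99.2 and 124. The mast cell and basophil list had 3 of 6 detected genes higher, with sums of 188 and 173 against 114 and 114. In the list of progenitor and cycling genes 4 of 9 were higher, with sums of 298 and 307 against 285 and 270. Among the 4 were the proliferation genes Mki67 (1.54, 1.28 to 1.85) and Top2a (1.64, 1.29 to 2.09). Kit and Cd34, which ganglion, mast and vessel cells also express, had ratios of 0.995 and 0.984. Flt3 was lower in the first pair, at 0.764 (0.602 to 0.969). The part of these cells in the result was not tested.

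Markers of other cell types differed to unequal degrees. None of the 10 macrophage genes reached a 1.5-fold difference, and their sums were 669 and 703 CPM against 604 and 605. The 3 detected globin genes did not reach it either, with a list sum of 425 and 413 against 339 and 359. Of 7 detected B cell genes, 0 were 1.5-fold higher in the first pair and 1 in the second, with Vpreb2 at 0 in all libraries. Bone genes had 1 of 8 higher (sums of 202 and 195 against 166 and 178), and eosinophil genes 1 of 7 higher in the first pair and 1 in the second. The 10 ganglion genes had none in either direction, and Prph, for one, stood at 754 and 729 against 746 and 726 CPM. The sum of skeletal muscle genes, a list added after the values had been seen, was 4160 and 4209 against 2481 and 2477 CPM, with 7 of 12 genes at least 1.5-fold higher in the first pair. Adipocyte genes, also added, had 5 of 7 detected genes higher and sums of 335 and 342 against 227 and 224. The part of muscle and fat in the difference of the 10 genes was not tested.

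**Figure D3:**
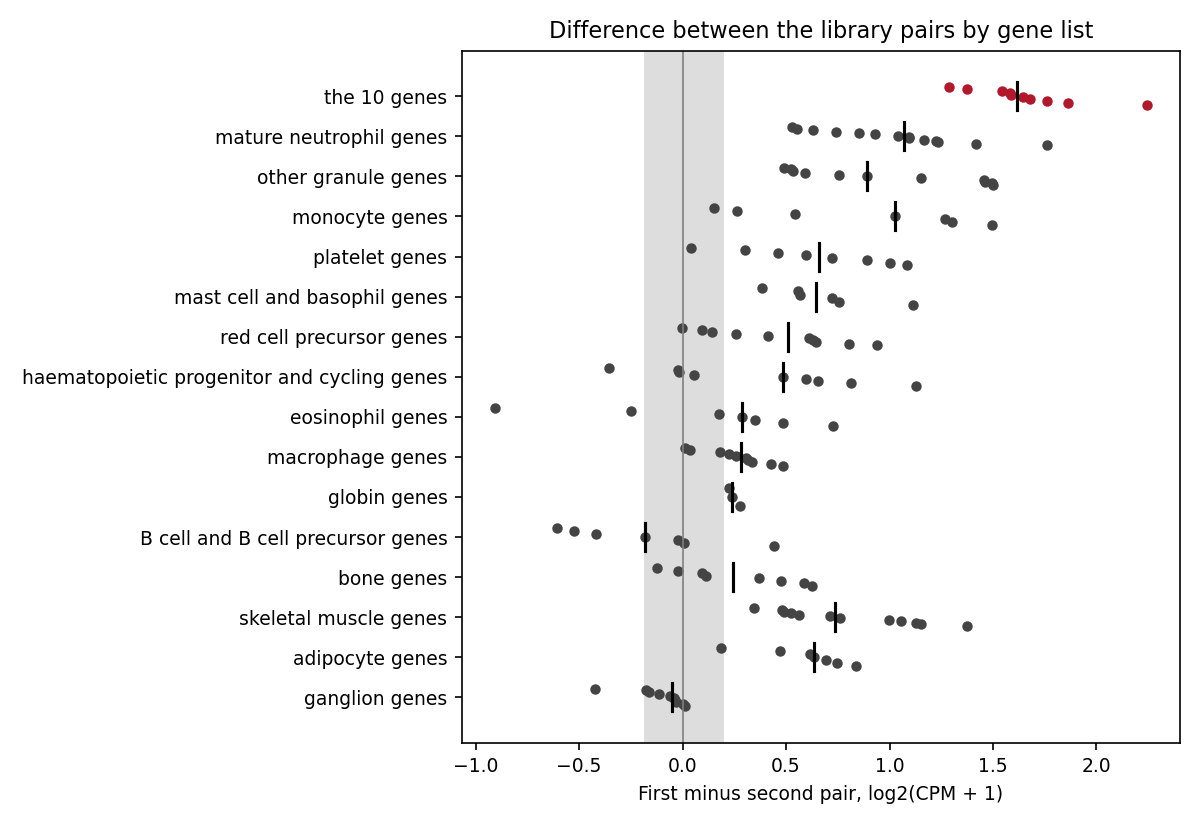
Difference of the first minus the second pair in log2(CPM + 1) for each detected gene of a list, 1 point per gene, with the list's median as a vertical bar and the range between the quartiles of all detected genes in grey. The 10 genes have a median of 1.62, mature neutrophil genes 1.07, monocyte genes 1.03, macrophage genes 0.28 and ganglion genes -0.05.

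Among the S100 genes, small calcium-binding proteins of many cell types, the calprotectin subunits stood apart by how they varied. Of 16 S100 genes, 10 were detected. S100a6, a gene of fibroblasts and glia that lies in the same cluster on chromosome 3, was highest per kb of coding length at 1504 CPM, with 424, 402, 393 and 387 CPM and a ratio of the pairs of 1.06. S100b, the glial member, had 1.07 and S100a10 1.04. Per kb, S100b stood at 853 and S100a10 at 755 CPM, so S100a9 lay above both in the first pair, at 1364, and below both in the second, at 434. The remaining detected members were S100a4, S100a1, S100a16, S100a11 and S100a13, between 73.7 and 126 CPM per kb, with ratios of 1.11 to 1.49. S100a4 and S100a11 share 94.2% and 89.1% of their windows with other annotated genes and are uncertain. S100z was listed at 0 in all 4 libraries.

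**Figure D4:**
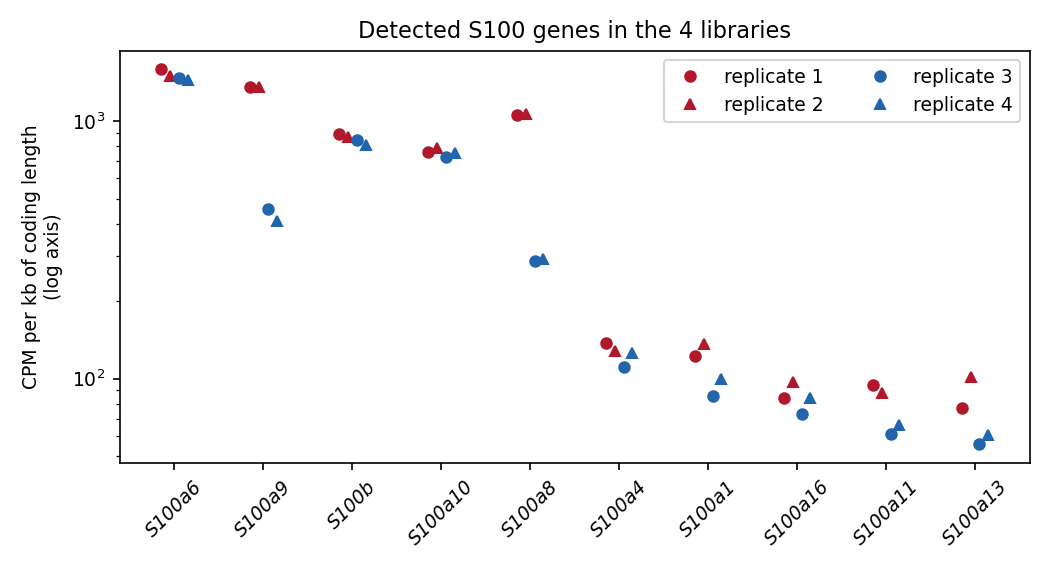
Level of the 10 detected S100 genes in CPM per kb of coding length on a log axis, 1 point per library, with replicates 1 and 2 in red and 3 and 4 in blue. S100a8 and S100a9 are the genes with a wide gap between colours (1061 and 1364 in the first pair, 289 and 434 in the second).

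Genes for receptors of these proteins were measured too, without resolving the cells that express them. Of 16 receptor genes, 15 were detected, 3 were at least 1.5-fold higher in the first pair and 1 in the second. Lrp1, an endocytic receptor that binds lactoferrin, stood at 1689 ± 27.0 CPM, and Bsg, which encodes a binding partner of S100A9, at 526 ± 8.02 CPM (SD, n = 2). Emb, for another such partner, stood at 222, 207, 244 and 230.5 CPM in replicates 1 to 4. Slc22a17, a lipocalin-2 receptor gene, stood at 285 ± 22.5. The alarm receptor gene Tlr4 was low at 8.62 ± 0.396 and its partner Ly96 at 3.35 ± 0.517. Ager, which encodes RAGE, the receptor of glycated proteins and of S100 proteins, was not detected, with a mean of 0.529 CPM. The 3 receptor genes higher in the first pair were Itgb2, Itgam and Fpr2. Itgb2 had a ratio of 1.67 and Itgam 1.52, and together they encode the integrin Mac-1. Fpr2 had 2.08 (0.966 to 4.75), an interval that held 1, and shares 54.7% of its windows with related genes. Lrp2, an endocytic receptor that also takes up lipocalin-2, was higher in the second pair, with a ratio of 0.604 (0.445 to 0.813).

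Inhibitor genes of granule proteases lay close to the median of all genes. Of 14 inhibitor genes, 9 were detected, 1 was at least 1.5-fold higher in the first pair (Slpi, at 2.58, 5.70, 2.30 and 1.60 CPM) and 1 in the second (Serpina1e, of a family of near-identical copies), and the median difference was -0.00076. A2m led at 171 ± 16.3 CPM, followed by Serpina3n at 137 ± 12.8 and Serpinb1a, an inhibitor of elastase and proteinase 3 inside neutrophils, at 64.2 ± 8.65. Serpinb1a had a ratio of 1.22 (1.06 to 1.41). Signals that call neutrophils into tissue were near the limit of detection: Cxcl2, Cxcl3, Csf3 and Il17a were listed at 0 in all 4 libraries, and Cxcl1, Cxcl5, Csf2, Il6 and Il1b had means below 1 CPM. A count of 0 allows up to 3 reads, which is 0.860, 1.14, 1.15 and 0.799 CPM in replicates 1 to 4, so low levels of these genes cannot be seen at this depth. The 3 detected genes of that list were Cxcl12, Csf1 and Ppbp, which is also in the platelet list.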

How the data were processed

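Ribosome footprints of 4 libraries of 1 group were analysed; RNA abundance libraries, which the labels' protocols name, were not used here. Per the labels' protocols, spin columns were used to isolate RNA held by ribosomes, rRNA was removed, and fragments of 28 to 34 nt were cut from 15% gels. The submitters' processing notes name GRCm38.p4 (mm10) as the build, Cufflinks 2.2.1, Bowtie2 2.2.9, TopHat2 2.1.1 and FastQC 0.11.5. How reads were counted, whether strand was used and how reads matching several places were treated is not given in the sources used here. Values as deposited by the authors are named TPM in the file header but behave as CPM: they sum to 1000000 per library, and at least 96.5% of those above 0 are whole multiples of 1 step (tolerance 0.02 steps), whatever the gene length. The plan allowed for either unit. No count test was run.

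Rows with the same symbol were summed. Reads were recovered by dividing by the step. GENCODE M21 (GRCm38) gave positions and coding lengths (APPRIS principal transcript, otherwise the longest) for 48052 of 48431 IDs. A gene was called detected from an average of 1 CPM, and differences are in log2(CPM + 1). Ratios of pairs are of pooled reads per library size, with exact conditional binomial intervals, and shares have Clopper-Pearson intervals; reads without molecular identifiers are not independent molecules. Promoters are from RefSeq (GRCm38.p6), with all 10 genes matched by symbol. The steps were tested on simulated reads with known totals and folds. Computations used scipy 1.17.1, pandas 2.3.3 and numpy 2.4.6 under Python 3.11.15, and plots matplotlib 3.10.9.

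The genes and lists were chosen with earlier results of these data known; the skeletal muscle and adipocyte lists were added after their values were seen. The rule for naming took all 10 genes, the 3 highest, the lowest detected and the zero members of other lists, and any detected receptor, inhibitor or S100 gene. The text names only some of those it took in other lists, and these, with the genes outside the rule, were picked after their values were seen. Some genes of the lists are not reported here by name. Alternatives changed the scaling, the replicates kept, the pseudocount, the minimum level, the length used and the row kept per symbol.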

Additional observations from a re-analysis of the deposited data

How the results depend on the processing

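The 10 genes were detected under every alternative tried, and their difference between the pairs kept its direction in the 9 alternatives that gave it. It lay between 1.25 and 2.60 in log2 over single genes. The lowest value was that of Mpo with a pseudocount of 5 in place of 1. Of 239 recomputed values, 228 moved by less than the spread or counting error (counts by less than 1.5 times) and none changed sign. For the levels, that spread was the gap between the pairs, as in S100a8 (180 ± 146 CPM), so few changes could exceed it. Keeping the larger row per symbol, or counting each library as a sample, left the levels of the 10 genes identical. The count of 228 therefore cannot show how firm the levels are. The excess of secondary over primary granule genes, 1.31 ± 0.0012 (SD over the 2 pairs, which is small beside the range of 1.26 to 1.36 over single libraries), moved beyond that SD to 1.32 with scaling to reads outside mitochondrial and rRNA genes, 1.35 and 1.18 with pseudocounts of 0.1 and 5, 1.84 per kb of coding length and 1.43 per kb of exon length, and ranged from 1.29 to 1.34 when 1 replicate was left out. S100a9 minus S100a8 moved from 0.81 to 0.47 per kb of coding length. Of the mature neutrophil genes, 14 were detected, and 2 with a minimum mean of 10. No paired analysis was possible because there was only 1 group. With 2 independent samples at most, no spread between animals is known, and low genes such as Ly6g, Fpr2 and Bpi rest on few reads.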

Other observations

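The genes that lie beside the 10 on the chromosomes had mostly small differences between the pairs. Over 17 detected flanking coding genes, the median difference was 0.17 in log2(CPM + 1), and 3 were at least 1.5-fold higher in the first pair. These were Lrrc2 and Ccrl2, on either side of Ltf, and Sprr1a, the nearest detected coding gene on 1 side of S100a8, 1813917 bases away. All 3 were low and rest on few reads. In the first and second pair Lrrc2 stood at 1.67 and 0.516 CPM and Ccrl2 at 2.86 and 1.43. Sprr1a stood at 5.96 and 1.05 CPM. Ceacam10, the nearest detected coding gene on 1 side of Cd177, ran the other way, at 112 CPM in the first pair and 279 in the second. Cfd, the adipsin gene beside Elane, stood at 110 and 78.8 CPM.

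Of the 8995 genes that averaged 10 CPM or more, 25 were higher in the first pair by at least as much as Mpo. Because Mpo had the smallest difference of the 10 genes described, all 10 were among the 25 by the choice of this cut. Nothing is read from that. The other 15 included Mmp8 and Ctsg of the granule list, Retnlg of the mature neutrophil list, Rac2 of the oxidase list and the antisense transcript Gm11505. They also included the striated muscle genes Myh7, Myh6, Klhl41, Actn2 and Adssl1, and Snora3 and Snora21, which encode small nucleolar RNAs. Myh7, the slow muscle myosin gene, stood at 110, 107, 14.6 and 17.9 CPM in replicates 1 to 4. Snora3 stood at 81.6, 98.0, 4.20 and 1.20 CPM.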
